A study of Rattus norvegicus with 16 samples.

Results

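Grin1, Grin2b and Bdnf, 3 genes tied to central sensitization, were described across 16 poly(A) RNA libraries of the rat lumbar spinal dorsal horn. They were chosen by gene ID: ENSRNOG00000011726 for Grin1, ENSRNOG00000008766 for Grin2b and ENSRNOG00000047466 for Bdnf. These are 3 of the 30560 gene IDs in the deposited table, and all 3 were among the 15237 IDs that passed the filter on low counts. The table pairs no ID with a name, so these 3 names are those given with the IDs at selection.

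The rats were wild type (WT) or LPA4 knockout (KO), and tissue was collected 28 days after surgery. LPA4 is a receptor for lysophosphatidic acid, a lipid messenger. Rats were sham-operated or underwent SNI, spared nerve injury, in which branches of the sciatic nerve are cut and a remaining branch is left intact, a model of neuropathic pain. Each combination of genotype and operation had 4 libraries, giving 4 groups. Sample titles of the KO sham libraries carry "WT" where the operation is named elsewhere. They were taken as sham because the matching columns are headed KO sham and the stated design has only these operations. The sources used here do not give strain, sex, age, the knockout allele or whether each library came from 1 rat, so the p-values below speak of spread between libraries, which may be technical. The ID of the targeted receptor gene is not paired with its name, and neither are those of cell type markers, so neither the knockout nor the labelled tissue was checked here.

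NMDA receptors are glutamate-gated cation channels that open when glutamate is bound and the membrane is already depolarized, and they admit calcium. Grin1 encodes the obligatory GluN1 subunit, which binds the co-agonist glycine, and Grin2b encodes GluN2B, a glutamate-binding subunit that sets slow channel kinetics. Bdnf encodes brain-derived neurotrophic factor, a secreted ligand of the receptor TrkB that enhances NMDA receptor function in the dorsal horn. Central sensitization is the lasting increase in the excitability of dorsal horn neurons after injury, and these genes are among the best known in its study.

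Promoter windows are shown for Grin1 and Bdnf, the genes of the 3 that had windows in the reference used. The RefSeq promoter table (build GRCr8, windows of 300 bases around an annotated start) matched Grin1 to 1 window and Bdnf to 6, as Bdnf has several alternative first exons. That promoter table held 0 windows for Grin2b. Capitals mark the cAMP response element half-site TGACG or its reverse complement CGTCA, and the EGR-type motif GCGGGGGCG, searched on both strands. The first line is Grin1 at chr3:28528705-28529004 on the minus strand. The second line is the fourth Bdnf window at chr3:116637608-116637907 on the plus strand, the only 1 of the 6 with a half-site.
Grin1: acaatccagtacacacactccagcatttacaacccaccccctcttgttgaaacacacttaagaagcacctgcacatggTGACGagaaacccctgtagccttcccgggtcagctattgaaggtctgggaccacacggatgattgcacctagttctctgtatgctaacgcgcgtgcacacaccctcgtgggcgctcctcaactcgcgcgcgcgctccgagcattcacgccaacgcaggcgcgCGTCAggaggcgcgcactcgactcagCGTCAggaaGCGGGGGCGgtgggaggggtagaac
Bdnf: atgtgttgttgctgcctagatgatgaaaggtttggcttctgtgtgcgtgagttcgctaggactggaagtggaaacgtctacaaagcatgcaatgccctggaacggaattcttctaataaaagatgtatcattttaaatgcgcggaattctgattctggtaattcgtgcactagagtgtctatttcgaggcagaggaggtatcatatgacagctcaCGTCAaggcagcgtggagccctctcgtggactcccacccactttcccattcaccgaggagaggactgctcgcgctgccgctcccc

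The Grin1 window held 3 half-sites and 1 EGR-type motif, and the Bdnf window held 1 half-site. Of the 33469 windows in the table, 21.2% held the half-site and 2.73% held the EGR-type motif. The full element TGACGTCA, which contains the half-site on both strands, was in 1.83% of windows and in neither gene's windows. A match describes these letters alone. The counts are per gene, so they cannot tell the Bdnf start sites apart.

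Library totals ran from 15790242.97 to 28090152.02 counts. WT sham replicate 2 had the lowest total and correlated with the rest at a median of 0.949. This median was 0.973 in KO SNI replicate 1 and 0.98 to 0.987 in the remaining 14. All 3 genes were lowest in WT sham replicate 2, so results that use WT sham are given with and without it. In bulk tissue, fewer cells that express a gene and less RNA per cell cannot be told apart. Levels are in CPM, counts divided by library size after TMM scaling. Comparisons below share libraries: SNI against sham and KO against WT use the same sham groups. They are not divided by transcript length, so levels of different genes are not compared.

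Bdnf, the ligand gene, had higher means after SNI in both genotypes, but the rise was not called by the test in either. In WT sham, Bdnf was at 8.58, 1.52, 10.05 and 12.8 CPM in replicates 1 to 4. In WT SNI it was at 10.8, 16.8, 12.98 and 10.001 CPM. All 4 SNI libraries lay above the sham median, and 2 of them, replicates 2 and 3, lay above every sham library. Without WT sham replicate 2 the sham median is the 10.05 CPM of replicate 3, and WT SNI replicate 4 lies just below it. The mean was 12.6 ± 3.03 CPM with SNI and 8.25 ± 4.82 CPM with sham (SD, n = 4 each), and the groups overlapped.

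The Bdnf value in WT sham replicate 2 rested on 22 counts. Its exact 95% Clopper-Pearson interval, which covers counting error only, was 0.952 to 2.30 CPM, while that of the next lowest WT sham library was 7.48 to 9.80 CPM. The mean of the other 3 WT sham libraries was 10.5 ± 2.17 CPM (SD, n = 3), 6.90-fold the value of replicate 2. The counting intervals given above did not overlap, and the source of the gap was not tested.

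In KO rats the Bdnf values of sham and SNI libraries did not overlap. KO sham was at 8.53, 8.56, 10.4 and 11.02 CPM in replicates 1 to 4. KO SNI was at 11.6, 17.3, 14.8 and 11.1 CPM. The mean was 13.7 ± 2.90 CPM with SNI and 9.62 ± 1.27 CPM with sham (SD, n = 4 each). By group means the order was thus WT sham, KO sham, WT SNI and KO SNI; the first pair and the last pair of neighbours overlapped, as did KO sham and WT SNI, and without its replicate 2 WT sham stood above KO sham. The gap between the highest sham library (11.02 CPM, interval 9.62 to 12.6) and the lowest SNI library (11.1 CPM, interval 9.86 to 12.5) was within counting error. It closed when CPM was computed on unscaled totals, which gave 11.4 CPM for that sham library and 10.9 CPM for that SNI library. Of all genes tested, 3.64% had groups that did not overlap in this comparison, against 1 of these 3 genes. The share was 3.14% for SNI against sham in WT, where 0 of the 3 did so.

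**Figure D1:**
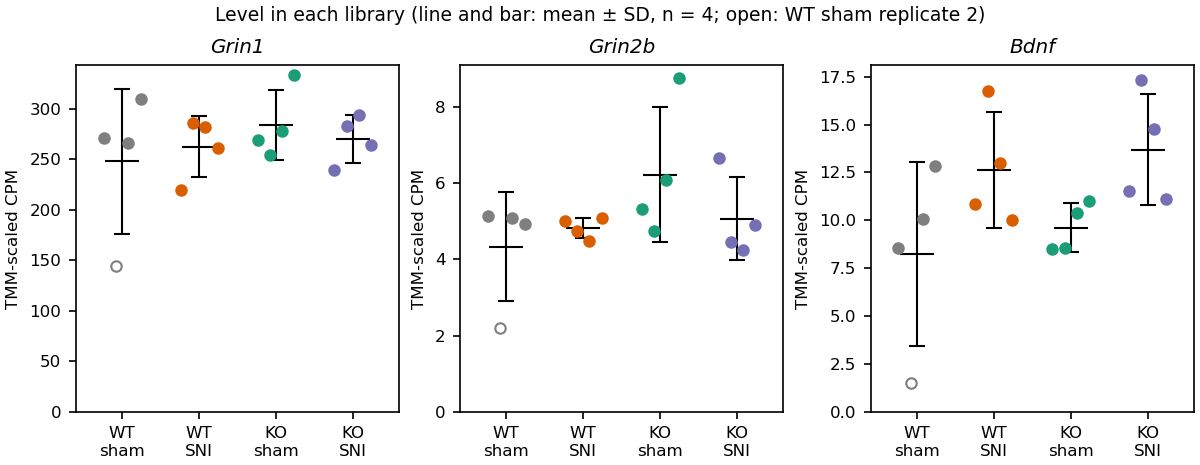
Levels of Grin1, Grin2b and Bdnf in TMM-scaled CPM on the vertical axes, 1 point per library, replicates 1 to 4 from left to right in each group; lines and bars give the mean ± SD (n = 4). WT sham replicate 2 (open circle) is the lowest of the 16 libraries in each panel, at 144 CPM for Grin1, 2.21 CPM for Grin2b and 1.52 CPM for Bdnf.

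The edgeR model over all 16 libraries gave Bdnf a log2 fold change after SNI of 0.60 in WT (SE 0.37, 95% confidence interval -0.18 to 1.39, edgeR adjusted p = 0.998). This corresponds to 1.52-fold, and its unadjusted p was 0.124. In KO it was 0.51 (SE 0.37, interval -0.27 to 1.29, edgeR adjusted p = 0.995), or 1.42-fold, with an unadjusted p of 0.187. The spread behind these intervals is shared by the 4 groups. Fits of only the 8 libraries compared gave 0.61 in WT (unadjusted p = 0.224, edgeR adjusted p = 0.9999) and 0.51 in KO (unadjusted p = 0.0118, edgeR adjusted p = 0.705). A gene is said to be called when its p, adjusted over all 15237 genes, is under 0.05. In WT 0.0788% of genes were called and in KO 0.105%, and 0 of the 3 genes was among them in either.

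Averaged over genotypes, the SNI effect on Bdnf was 0.56 on the log2 scale (SE 0.26, interval 0.00096 to 1.11), or 1.47-fold. Its unadjusted p of 0.0497 did not withstand adjustment (edgeR adjusted p = 0.936). A smaller p was found for 5.30% of all genes, and 0.912% were called in this comparison, with 0 of the 3 genes among them. By edgeR 5.31% of genes had an unadjusted p under 0.05.

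Leaving out WT sham replicate 2 lowered the WT estimate for Bdnf and narrowed the intervals. Without it the SNI effect on Bdnf was 0.28 in WT (interval -0.15 to 0.71, unadjusted p = 0.184, edgeR adjusted p = 0.811). In KO, where this library enters only through the shared spread, it was 0.51 (interval 0.11 to 0.90, unadjusted p = 0.0156, edgeR adjusted p = 0.562). The averaged effect was 0.39 (interval 0.10 to 0.69, unadjusted p = 0.0116, edgeR adjusted p = 0.336), or 1.31-fold. Without both this library and KO SNI replicate 1, Bdnf gave 0.58 in KO (interval 0.17 to 0.99, unadjusted p = 0.00814, edgeR adjusted p = 0.503). The averaged value was then 0.43 (interval 0.14 to 0.72, unadjusted p = 0.00627, edgeR adjusted p = 0.290), and the WT value was 0.28 (interval -0.13 to 0.69). The biological coefficient of variation of Bdnf was 37.2% with all libraries, more than that of 93.3% of genes, and 18.3% without WT sham replicate 2. The WT estimate and the spread of Bdnf thus both depend on 1 sham library, and no estimate given here was called.

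**Figure D2:**
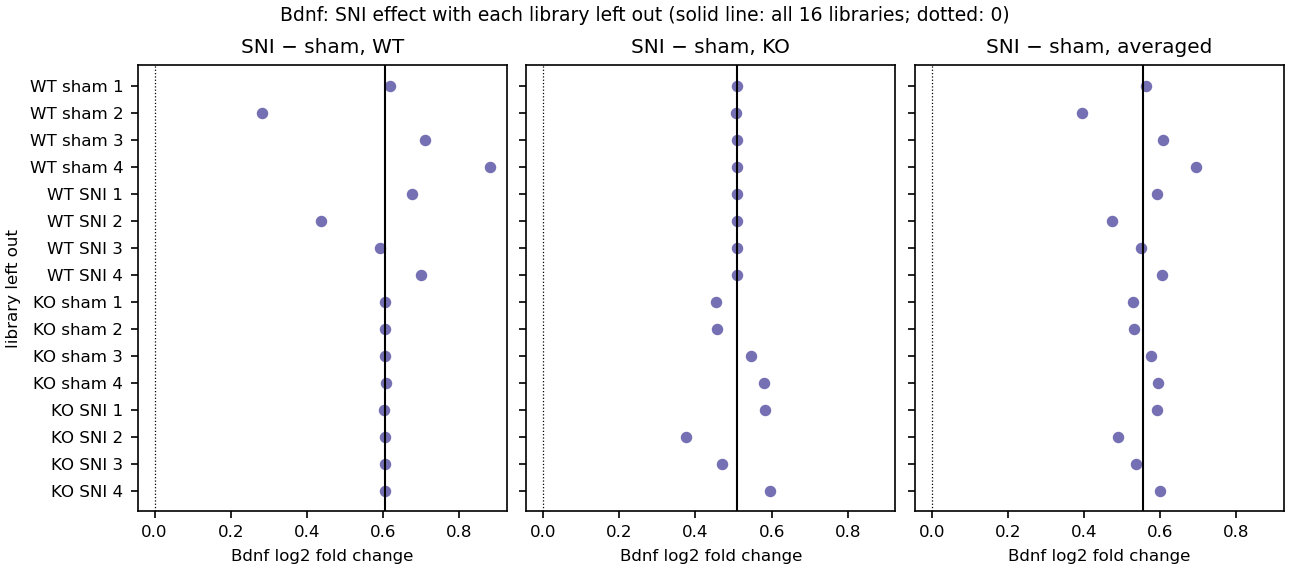
Log2 fold change of Bdnf after SNI (horizontal axes) when each library named on the vertical axis is left out, in WT, in KO and averaged; the solid line is the value over all 16 libraries and the dotted line is 0. Every point is above 0, from 0.28 to 0.88 in WT, from 0.37 to 0.59 in KO and from 0.39 to 0.69 averaged.

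The Bdnf estimate was above 0 with every library left out in turn. In WT the ends of the range came from sham libraries: leaving out replicate 2 gave 0.28 and leaving out replicate 4 gave 0.88. In KO they came from SNI libraries: leaving out replicate 2 gave 0.37 and leaving out replicate 4 gave 0.59. The smallest edgeR adjusted p among these fits was 0.808 in WT and 0.562 in KO.

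Bdnf did not differ detectably between genotypes. After sham, KO against WT gave 0.21 on the log2 scale (interval -0.59 to 0.9996, edgeR adjusted p = 0.915), and the sign turned to -0.12 (interval -0.55 to 0.31) without WT sham replicate 2. After SNI it gave 0.11 (interval -0.66 to 0.88, edgeR adjusted p = 0.9998). The interaction, KO minus WT in the SNI effect, was -0.10 (interval -1.20 to 1.01, edgeR adjusted p = 0.991) and 0.23 (interval -0.36 to 0.81) without that library. Over all libraries, each of these 3 intervals spans differences of over 1.5-fold in both directions. The interval for KO against WT after sham runs from 0.682-fold to 1.24-fold when WT sham replicate 2 is left out.

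Grin1, the obligatory subunit gene, showed the smallest estimates of the 3 genes after SNI over all libraries, while without WT sham replicate 2 its WT estimate (-0.11) was farther from 0 than that of Grin2b (-0.07). WT sham was at 271, 144, 266 and 309.8 CPM in replicates 1 to 4, and WT SNI was at 219.6, 285, 282 and 261 CPM. KO sham was at 269, 254, 278 and 333 CPM, and KO SNI was at 239 CPM, 283, 294 and 264 CPM. Apart from WT sham replicate 2, each library lay between 219.6 and 333 CPM, and every pair of groups overlapped.

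By group means, the order of Grin1 was WT sham (247.8 ± 71.6 CPM), WT SNI (262 ± 30.2), KO SNI (270.1 ± 23.8) and KO sham (284 ± 34.7; SD, n = 4 each). No neighbours in this order differed beyond their spread. Without its replicate 2, WT sham stood at 282 ± 24.0 CPM (SD, n = 3), next to KO sham.

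The SNI effect on Grin1 was 0.08 on the log2 scale in WT (SE 0.17, interval -0.29 to 0.45, edgeR adjusted p = 0.998) and -0.07 in KO (SE 0.17, interval -0.44 to 0.30, edgeR adjusted p = 0.995). Averaged over genotypes it was 0.0048 (interval -0.26 to 0.27), and -0.09 (interval -0.25 to 0.07) without WT sham replicate 2. In WT the sign turned to -0.11 (interval -0.35 to 0.13) without that library.

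Between genotypes, Grin1 in KO against WT was 0.19 after sham (interval -0.18 to 0.56) and 0.04 after SNI (interval -0.33 to 0.41). Their edgeR adjusted p values were 0.878 and 0.9998. Without WT sham replicate 2 the sham value was 0.01 (interval -0.23 to 0.25). The interaction was -0.15 (interval -0.67 to 0.37, edgeR adjusted p = 0.978) and 0.03 without that library.

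Grin2b, the gene of the glutamate-binding subunit, had few counts, from 32 to 190 per library, so its values carry more counting error than those of Grin1. WT sham was at 5.13, 2.21, 5.09 and 4.92 CPM in replicates 1 to 4, and WT SNI at 5.01, 4.75, 4.49 and 5.08 CPM. KO sham was at 5.31, 4.75, 6.08 and 8.77 CPM, and KO SNI at 6.65, 4.46, 4.25 and 4.90 CPM. Every pair of groups overlapped.

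WT SNI libraries lay close together, while 1 library in each other group lay away from the rest. In WT sham this was replicate 2, at 2.21 CPM (interval 1.51 to 3.12), below an interval of 3.97 to 6.04 CPM in the next lowest library. In KO sham it was replicate 4, at 8.77 CPM (interval 7.52 to 10.2), above the interval of 5.15 to 7.13 CPM in the next highest. In KO SNI it was replicate 1, at 6.65 CPM (interval 5.74 to 7.67), whose interval overlapped that of the next highest library, 4.07 to 5.86 CPM.

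By group means, the order of Grin2b was WT sham (4.34 ± 1.42 CPM), WT SNI (4.83 ± 0.266), KO SNI (5.07 ± 1.09) and KO sham (6.23 ± 1.78; SD, n = 4 each). Neighbours in this order overlapped. Without its replicate 2, WT sham stood at 5.05 ± 0.109 CPM (SD, n = 3), between WT SNI and KO SNI.

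The largest genotype difference of the 3 genes was that of Grin2b after sham, 0.51 on the log2 scale in KO against WT (SE 0.24, interval -0.0035 to 1.02), or 1.42-fold. It was not called (unadjusted p = 0.0514, edgeR adjusted p = 0.878), and 4.02% of all genes had a smaller p. Without WT sham replicate 2 it was 0.30 (interval -0.11 to 0.72, edgeR adjusted p = 1), and without KO sham replicate 4 it was also 0.30. Leaving out KO sham replicate 2 gave 0.61 (unadjusted p = 0.0286, edgeR adjusted p = 0.785). With the replicate number as a block it was 0.52 (unadjusted p = 0.0313, edgeR adjusted p = 0.868). All 24 alternative fits gave values above 0, and none called it. Of the KO sham libraries, 3 lay above every WT sham library. After SNI the Grin2b difference was 0.07 (interval -0.44 to 0.58, edgeR adjusted p = 0.9998), and -0.09 without KO SNI replicate 1. In both genotype comparisons 0.0131% of genes were called, and 0 of the 3 genes was among them. Groups did not overlap for 2% of genes after sham and 1.19% after SNI, and for 0 of these 3 genes in either.

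SNI effects on Grin2b differed in sign between genotypes without a detectable difference between them. The effect was 0.14 in WT (SE 0.24, interval -0.37 to 0.65, edgeR adjusted p = 0.998) and -0.30 in KO (SE 0.24, interval -0.80 to 0.21, edgeR adjusted p = 0.995). Without WT sham replicate 2 the WT value was -0.07 (interval -0.48 to 0.35). The KO value was -0.46 without KO SNI replicate 1 (unadjusted p = 0.0823, edgeR adjusted p = 0.965). Without WT sham replicate 2 as well, which enters this value only through the shared spread, it stayed at -0.46 (interval -0.82 to -0.09, unadjusted p = 0.0170, edgeR adjusted p = 0.598). The KO value was -0.09 with only KO sham replicate 4 left out, the library with the highest Grin2b. Averaged over genotypes, the SNI effect on Grin2b was -0.08 (interval -0.44 to 0.28, edgeR adjusted p = 0.9999). It was -0.18 (interval -0.46 to 0.10) without WT sham replicate 2, and -0.26 (interval -0.52 to -0.0050, unadjusted p = 0.0462, edgeR adjusted p = 0.619) without both that library and KO SNI replicate 1. The Grin2b interaction was -0.44 (interval -1.15 to 0.28, edgeR adjusted p = 0.978), and -0.23 (interval -0.80 to 0.33) without WT sham replicate 2. The interaction called 0% of all genes by edgeR, with 468 at an unadjusted p under 0.05 and 1 called by DESeq2.

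**Figure D3:**
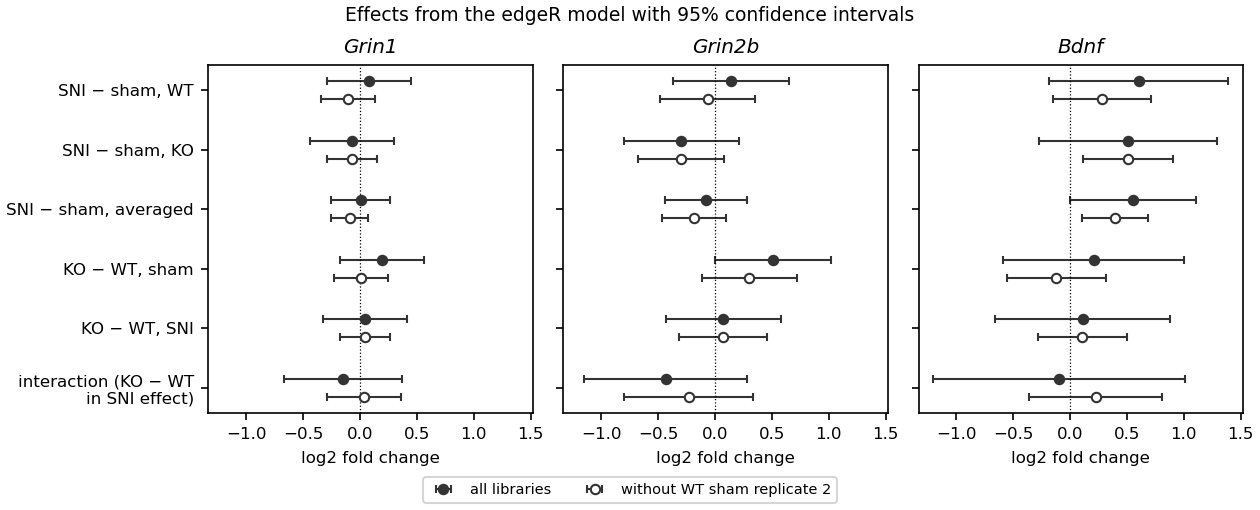
Log2 fold changes (horizontal axes) of the 3 genes in 6 comparisons, with 95% confidence intervals derived from the edgeR fits, over all libraries (filled) and without WT sham replicate 2 (open). Bdnf lies to the right of 0 in each of the 3 SNI comparisons, Grin1 lies within 0.2 of 0 throughout, and Bdnf intervals are shorter without the library.

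Ratios of 2 genes within a library do not depend on the scaling between libraries. In WT, Grin2b per 100 Grin1 counts was 1.73 ± 0.200 with sham and 1.87 ± 0.312 with SNI (SD, n = 4 each). In KO it was 2.17 ± 0.337 with sham and 1.91 ± 0.601 with SNI (SD, n = 4 each). The ratio of WT sham replicate 2 was 1.53, close to the 1.59 of WT sham replicate 4, as Grin1 was 1.95-fold and Grin2b 2.28-fold below the mean of the other WT sham libraries. The other 3 WT sham libraries ran from 1.59 to 1.91. The ratio was highest in KO SNI replicate 1, at 2.78, and lowest in KO SNI replicate 3, at 1.45.

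The Grin2b to Grin1 ratio was tested in 4 comparisons with exact two-sided permutation tests of its log2 value (70 arrangements, smallest possible p = 0.0286). KO against WT after sham gave 0.32 on the log2 scale, 1.25-fold (exact p = 0.0857, 0.343 adjusted over the 4 tests). The ratio in KO sham ran from 1.87 to 2.63 and in WT sham from 1.53 to 1.91, and these ranges overlapped. Leaving out WT sham replicate 2 gave 0.26 (exact p = 0.2). SNI against sham gave 0.10 in WT (exact p = 0.4), and 0.05 (exact p = 0.686) without WT sham replicate 2. With each library left out, this WT value ran from 0.0045 (without WT SNI replicate 1) to 0.18 (without WT SNI replicate 3). In KO the ratio difference was -0.21 (exact p = 0.4). It ran from -0.41 (exact p = 0.0571) without KO SNI replicate 1 to -0.095 (exact p = 0.714) without KO SNI replicate 3, and was -0.12 without KO sham replicate 4. KO against WT after SNI gave -0.00081 (exact p = 1), and -0.20 without KO SNI replicate 1.

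Bdnf per 100 Grin1 counts was a ratio added after the data were seen and is given with no test. It uses the same Bdnf counts as the levels above, without scaling between libraries, so it is not separate support for them. It was 3.17, 1.05, 3.77 and 4.15 in WT sham replicates 1 to 4, and 4.94, 5.88, 4.60 and 3.83 in WT SNI. It was 3.17, 3.37, 3.73 and 3.31 in KO sham, and 4.83, 6.11, 5.02 and 4.22 in KO SNI. In KO the SNI libraries lay above all sham libraries, and in WT they overlapped through WT SNI replicate 4. The share of all genes whose ratio to Grin1 separated these groups was not computed. Unlike Grin2b, Bdnf was lower relative to Grin1 in WT sham replicate 2 than in any other library.

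**Figure D4:**
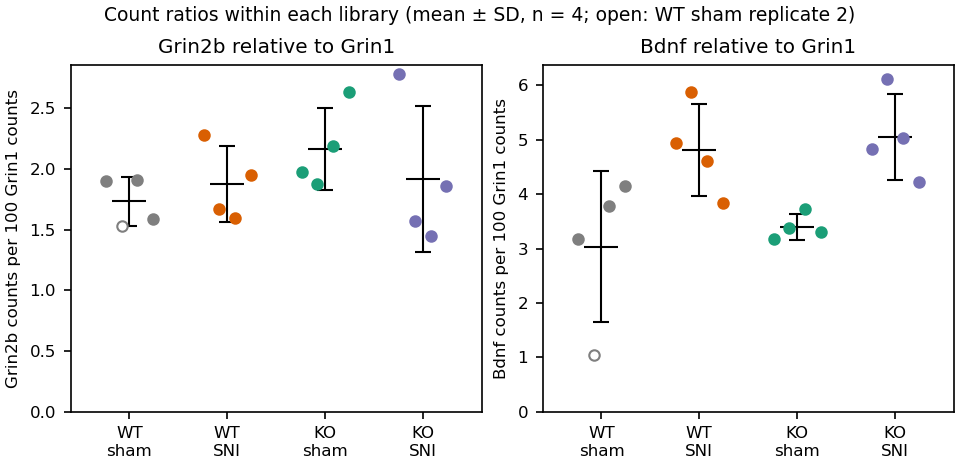
Counts of Grin2b (left) and Bdnf (right) per 100 Grin1 counts in the same library, 1 point per library; lines and bars give the mean ± SD (n = 4), and the open circle is WT sham replicate 2. Bdnf per 100 Grin1 is 4.22 to 6.11 in KO SNI and 3.17 to 3.73 in KO sham, while the Grin2b groups overlap. The Bdnf ratio was added after the data were seen and was not tested. The share of all genes whose ratio to Grin1 separates these groups was not computed.

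Over the 16 libraries, the levels of the 3 genes were compared pairwise on the log2 CPM scale, with 100000 permutations per test. Libraries were shuffled across the 4 groups, so the p-values do not separate group differences from spread within groups. Grin1 and Bdnf gave Pearson r = 0.854 (permutation p = 0.00631, 0.0189 adjusted over 3 pairs) and Spearman rho = 0.603 (permutation p = 0.0149, 0.0446 adjusted). Without the 2 libraries farthest from the Grin1 median, WT sham replicate 2 and KO sham replicate 4, r was 0.441 (permutation p = 0.113) and rho was 0.574. Without WT sham replicate 2 alone r was 0.343, so the Pearson relation of Grin1 and Bdnf rests on that library. Of all genes tested, 94.9% had a lower r with Grin1 than Bdnf had, and 78.1% without WT sham replicate 2.

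Grin1 and Grin2b gave r = 0.731 (permutation p = 0.0132, 0.0198 adjusted) but rho = 0.0324 (permutation p = 0.909, 0.909 adjusted), and r was -0.412 (permutation p = 0.140) without the 2 farthest libraries. Grin2b and Bdnf gave r = 0.626 (permutation p = 0.0621, 0.0621 adjusted) and rho = -0.256 (permutation p = 0.339, 0.509 adjusted). For that pair r was -0.429 (permutation p = 0.125) without the 2 libraries farthest from the Grin2b median. The relation of the 2 subunit genes thus rests on WT sham replicate 2 and KO sham replicate 4. Of all genes tested, 89.2% had a lower r with Grin1 than Grin2b had, and 69.7% without WT sham replicate 2. For r with Grin2b, 86.9% of genes lay below Bdnf, and 23.8% without WT sham replicate 2.

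**Figure D5:**
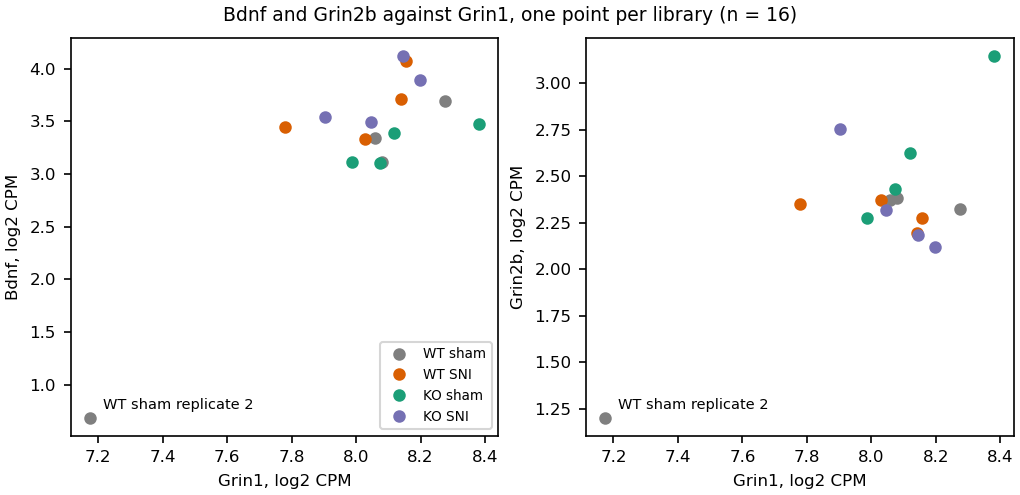
Bdnf (left) and Grin2b (right) against Grin1, in log2 CPM on both axes, 1 point per library coloured by group (n = 16). WT sham replicate 2 sits at the lower left of both panels, and r with Grin1 falls from 0.854 to 0.343 for Bdnf and from 0.731 to 0.224 for Grin2b without it.

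For each gene, the ID whose log2 CPM had the highest Pearson r with it over the 16 libraries was taken, as a description. For Grin1 it was ENSRNOG00000017023 (r = 0.974, and 0.902 over 15 libraries without WT sham replicate 2). For Grin2b it was ENSRNOG00000004158 (r = 0.956, and 0.899 over the 15), which was also highest in KO sham replicate 4, at 20.1 CPM, and lowest in WT sham replicate 2, at 4.01 CPM. For Bdnf it was ENSRNOG00000020129 (r = 0.945, and 0.59 over the 15), at 0.622 CPM in WT sham replicate 2 and 7.03 to 14.2 CPM in the others. Over the 15, a different ID had the highest r with each gene: 0.953 for Grin1, 0.902 for Grin2b and 0.784 for Bdnf. With Grin1, 394 genes had an r over 0.9 over 16 libraries and 12 over the 15. These counts were 87 and 1 with Grin2b, and 85 and 0 with Bdnf.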

How the data were processed

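The authors deposited 1 table of expected counts (estimated reads per gene, which need not be whole) for 30560 Ensembl gene IDs in 16 columns. The build mRatBN7.2 and the tools RSEM 1.3.1, STAR 2.7.9a and fastp 0.22.0 are listed without role or order, per the submitters' processing notes. Annotation, strand setting and filters: not given in the sources used here. Libraries were made with a stranded TruSeq mRNA kit, per the labels' protocols. All 48 values of the 3 genes were whole numbers.

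Counts were rounded, filtered with filterByExpr (minimum count 10; 15237 genes) and scaled by TMM. A quasi-likelihood model with 1 mean per group was fitted with edgeR 4.0.16 in R 4.3.3, and p-values were adjusted over all genes (Benjamini-Hochberg, threshold 0.05). Log2 CPM used a prior count of 2. DESeq2 1.42.0, limma 3.58.1 (voom), RLE and upper quartile scaling, no filter, a replicate block, fits of 8 libraries and fits that left libraries out were alternatives. The model was tested on simulated data. No libraries were duplicates (chi-square per degree of freedom at least 7.69 over 120 pairs).

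The genes and lists were chosen with earlier results of these data known. The named genes are the 3 genes and, by ID, the 1 most correlated with each. Lists of NMDA receptor, BDNF pathway and cell type genes fixed by symbol were not used: of 47357 genes in the reference table (GRCr8), 0 carried an Ensembl ID.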

Additional observations from a re-analysis of the deposited data

Results flagged for a closer look

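Grin2b in WT sham replicate 2 was at 2.21 CPM, while its 3 fellow libraries of that group ran from 4.92 to 5.13 CPM, a gap of 0.929 of the range of the 4 values. Of 20 sets of 4 values checked for 1 far from the rest (levels of the 3 genes and 2 ratios in each group), this was the only 1 past Dixon's 95% critical value, where chance gives about 1 in 20. The same library had the lowest total and the lowest Grin1 and Bdnf, and the part of these in the Grin2b value was not tested.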

How the results depend on the processing

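None of the 3 genes was called in any of the 426 effects computed under alternatives (smallest adjusted p 0.290), and 400 had the sign of the reported value. Counts per library ran from 32 to 190 for Grin2b and from 22 to 439 for Bdnf, and the part of depth in their spread was not tested. Left out alone, WT sham replicate 2 turned more signs than any other library. Without both it and KO SNI replicate 1, signs turned for Grin1 after SNI in WT (-0.11) and averaged (-0.062), Grin2b after SNI in WT (-0.066), Bdnf in KO against WT after sham (-0.12), Grin2b in KO against WT after SNI (-0.088), and the interactions of Grin1 (0.090) and Bdnf (0.30); by construction fewer libraries entered, and other causes were not tested. With each library left out, ranges were -0.11 to 0.20 for Grin1, -0.065 to 0.23 for Grin2b (SNI, WT), -0.12 to 0.016 for Grin1 (SNI, KO), -0.089 to 0.067 for Grin1 and -0.18 to 0.027 for Grin2b (averaged). For KO against WT they were -0.12 to 0.48 for Bdnf after sham, and -0.034 to 0.10 for Grin1, -0.089 to 0.15 for Grin2b and -0.024 to 0.28 for Bdnf after SNI. For the interaction they were -0.28 to 0.035 for Grin1 and -0.37 to 0.23 for Bdnf. For the Grin2b to Grin1 ratio they were 0.22 to 0.38 after sham (exact p = 0.0286 without KO sham replicate 2, the smallest possible with 4 against 3) and -0.20 to 0.12 after SNI.

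Deviations of same-numbered libraries correlated at a median of -0.0379 (from -0.478 to 0.516). Those of libraries with different numbers correlated at a median of -0.00304 (from -0.538 to 0.474). Of 16 libraries, 4 correlated best with their own number, and whether the numbers mark pairs was not tested further. There were 24 pairs with the same number and 72 with different numbers, so some best matches to the own number also arise by chance. With the replicate number as a block, Bdnf after SNI was 0.64 in WT and 0.52 in KO. The block gave 46 calls over all genes against 12 after SNI in WT, 70 against 16 in KO, and 1 against 2 in KO against WT after sham. These counts were 65, 100 and 3 by DESeq2, which called 221 averaged against 139 and 1 in the interaction against 0. Voom called 0 in WT and 7 in KO, and fits of 8 libraries called 0, 4 and 1 (KO against WT after sham). Without both libraries that stood apart the calls were 33, 7 and 1. With each library left out, calls ran from 0 to 20 in WT, 3 to 33 in KO, 79 to 177 averaged and 1 to 2 in KO against WT after sham.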

Other observations

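Within SNI, the order of the Bdnf values by replicate number was alike in the 2 genotypes: replicate 2 was highest (16.8 CPM in WT, 17.3 CPM in KO), then replicate 3 (12.98 and 14.8 CPM), replicate 1 (10.8 and 11.6 CPM) and replicate 4 (10.001 and 11.1 CPM). After SNI the counting intervals of replicates 1 and 4 overlapped in both genotypes. Per 100 Grin1 counts the orders differed, as WT SNI replicate 1 (4.94) stood above replicate 3 (4.60). In sham, replicate 4 was highest in both (12.8 CPM in WT, 11.02 CPM in KO). The lowest sham library was replicate 2 in WT (1.52 CPM) and replicate 1 in KO (8.53 CPM). The likeness was noticed after the values were seen, was not tested, and the labels do not say what a replicate number stands for.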
